A study of Glycine max with 4 samples.

Results

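Strong solitary sites are places on the soybean chromosomes where the protein of the locus GLYMA.08G357600 was strongly enriched in both ChIP replicates and where no other shared site lay close by. They were chosen by the authors' fold enrichment, the ratio of ChIP signal to local background at a peak's summit, and by position. A site was shared when 1 peak of each replicate overlapped by at least 50% of both widths, strong when its fold was at least 12 in both lists, and solitary when no other shared summit lay within 10000 bp. These rules kept 612 of 9806 shared sites on the 20 chromosomes. Strong sites numbered 1076, or 11.0% of the shared sites, and the 612 members made up 10.1% of the 6034 solitary ones. Because fold and spacing chose the members, these shares describe the selection and nothing is read from them. The comparison group, called weaker solitary here, had 4971 sites that were equally solitary and below 12-fold in both lists. A further 451 solitary sites passed 12-fold in 1 list and belong to neither group.

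The samples were early maturation embryos of the soybean cultivar Williams 82, taken from seeds 6 to 7 mm in size. They were fixed for 10 minutes in formaldehyde, and their chromatin was sonicated to pieces of 100 to 500 bp. Chromatin was precipitated with an antibody against a peptide of the protein, its amino acids 487 to 502, in 2 biological replicates, and 2 input samples were sequenced without precipitation. The study asked where this protein binds, and the values here come from 1 peak list per ChIP replicate, with 15774 peaks on chromosomes in replicate 1 and 10894 in replicate 2. The input samples were not used separately here, and the total number of reads per library is unknown here. Whole embryos were used, so more cells with the protein bound and more binding per cell cannot be told apart. Whether a peak marks binding of this protein was not tested.

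In ChIP-seq, fragments crosslinked to a protein pile up around the place of contact, and the summit, the highest point of the pile, is the caller's best estimate of that place. A peak covers the stretch of DNA on which the pile passes the caller's threshold, so a taller pile of the same shape also gives a wider peak. Contacts that lie closer together than a fragment's length merge into 1 peak, which can be broad or lopsided. Early maturation is the stage at which a seed embryo turns from growth by division to the laying down of storage protein and oil. Soybean chromosomes carry most of their genes toward the ends and most of their repeats in the middle.

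The strongest members stood more than 30-fold above their local background in both replicates, with 1 exception among the 10 highest. Positions are those of the replicate 1 peak, counting from 1, in the coordinates of the peak lists; no source used here names their genome build. The site on chromosome 11 from 34414110 to 34415118 had 36.1-fold enrichment in replicate 1 and 39.4-fold in replicate 2, and its summits at 34414724 and 34414728 were 4 bp apart. On chromosome 12, the site from 39597235 to 39598367 had 41.5-fold and 33.1-fold, and on chromosome 9 the site from 46609061 to 46609961 had 39.1-fold and 33.2-fold. A second site on chromosome 9, from 41059652 to 41061257, had 34.6-fold and 33.6-fold and summits 1 bp apart. These 4 sites differed in shape: the last had a peak of 1606 bp in replicate 1, against 901 bp for the narrower site on the same chromosome.

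Chromosome 10 held 2 of the 10 highest. The site from 39002930 to 39004197 had 38.0-fold in replicate 1 and 32.1-fold in replicate 2, while the site from 42600947 to 42602057 had 41.9-fold and 26.7-fold, the exception named above. The 2 replicates thus ranked the second site differently, with an SD of 10.8 around a mean of 34.3 (n = 2). Sites on chromosomes 17, 20, 15 and 5 completed the 10. The site from 12565060 to 12566132 on chromosome 17 had 40.1-fold and 30.9-fold, and the site from 46615125 to 46616142 on chromosome 20 had 36.4-fold and 33.2-fold. The replicates came closest on chromosome 15, from 2122203 to 2123033, with 34.7-fold and 34.8-fold, and on chromosome 5, from 3617814 to 3618752, with 34.4-fold and 34.1-fold.

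Taking all 10, mean fold ran from 34.1 to 37.7 and the SD between replicates from 0.08 to 10.8, so that their order was not resolved. At 8 of the 10 it was replicate 1 that had the higher fold. Their summits carried 349 to 444 ChIP fragments in replicate 1, where no summit of the list had more than 468. The same summits carried 284 to 409 in replicate 2, where the maximum was 434. For the first-named site, 423 fragments have an exact Poisson 95% interval of 384 to 465, and 369 fragments one of 332 to 409 (counting error only). All summit pairs of the 10 lay within 25 bp.

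At the other end, the threshold ran through a continuous range of values. The members just inside it were on chromosome 11 from 2586352 to 2586937, with 14.7-fold and 12.001-fold, on chromosome 18 from 1591869 to 1592796, with 16.6-fold and 12.01-fold, and on chromosome 9 from 7245971 to 7246765, with 29.1-fold and 12.01-fold. Solitary sites just outside it were on chromosome 6 from 22718750 to 22719467, with 18.5-fold and 11.99-fold, on chromosome 17 from 41445654 to 41446348, with 15.98-fold and 11.99-fold, and on chromosome 5 from 38713475 to 38714223, with 11.97-fold and 18.9-fold. In 5 of these 6 the lower value was that of replicate 2. Over all members, median fold was 19.4 in replicate 1 (range 12.1 to 41.9) and 16.7 in replicate 2 (12.001 to 39.4), against 5.47 and 4.81 for weaker solitary sites.

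**Figure D1:**
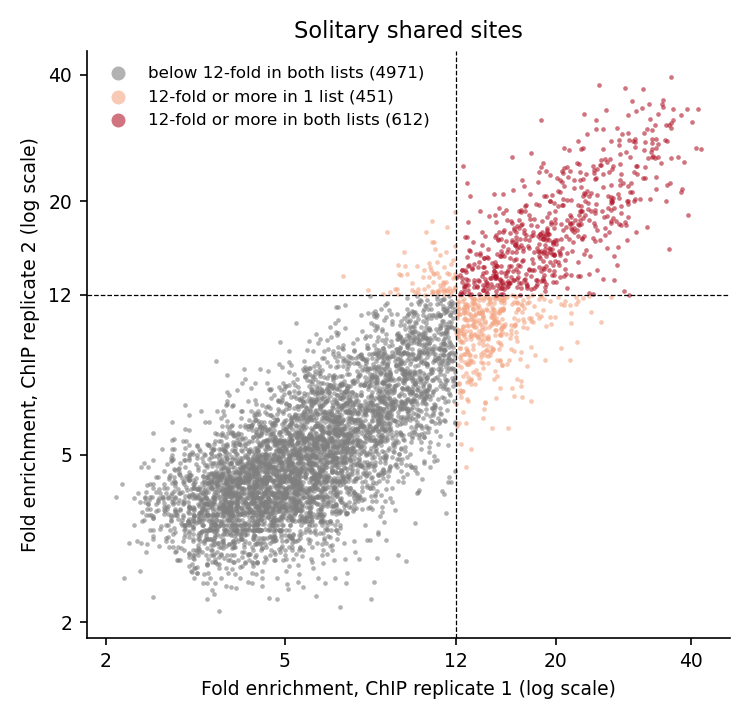
Fold enrichment of each solitary shared site in ChIP replicate 1 (horizontal) and replicate 2 (vertical), both on log scales, with dashed lines at 12-fold and 1 point per site. The 612 members fill the upper right corner by selection, and the 451 sites past 12-fold in 1 list lie mostly to the right of the vertical line and below the horizontal one.

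The difference in fold between replicates followed the local background more closely than it followed the fragments. The pileup, or number of ChIP fragments over a summit, and the background were recovered from the deposited fold and −log10 p. Median fragment number at members was 224 in replicate 1 (range 119 to 456) and 169 in replicate 2 (100.0 to 409). These numbers are not adjusted for library depth, which is unknown here. Fragments were more numerous in replicate 1 at 609 of 612 members, and at 4417 of 4971 weaker solitary sites, or 88.9%. The log2 ratio of fragments between replicates had a median of 0.39 and an SD of 0.13 at members. At weaker solitary sites these were 0.34 and 0.26. The log2 ratio of fold at members was wider than that of fragments, with a median of 0.19 and an SD of 0.31. Fold was higher in replicate 1 at 458 members, or 74.8% (exact binomial 95% interval 71.2 to 78.2%, counting error only, as for all intervals of shares below). It was also higher there at 64.6% of weaker solitary sites and 66.6% of all shared sites. Across the 612 members, the fold ratio had a Pearson correlation of −0.91 with the ratio of the backgrounds and of 0.28 with the ratio of the fragments. In weaker solitary sites the 2 correlations were −0.77 and 0.60, so the fold ratio went with the fragments more closely there. Fold is computed from both quantities, so these correlations are descriptions and were not tested.

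The members with the most unequal folds show the same values one by one. On chromosome 9, the site from 7245971 to 7246765 had 29.1-fold in replicate 1 and 12.01-fold in replicate 2, with 321 and 226 fragments on backgrounds of 10.1 and 15.0. The member on chromosome 8 from 18183393 to 18184359 had 35.8-fold and 15.4-fold, with 318 and 236 fragments on backgrounds of 7.92 and 12. Both had more background in replicate 2, although the median background of the members was lower there, 7.03 against 10.3 in replicate 1. In the opposite direction, the site on chromosome 4 from 1471266 to 1472044 had 12.4-fold and 24.2-fold, with 255 and 202 fragments on backgrounds of 19.6 and 6.09. The site on chromosome 20 from 37269733 to 37270611 had 12.7-fold and 22.2-fold, with 248 and 224 fragments on backgrounds of 18.6 and 7.59. Fragments were thus more numerous in replicate 1 at all 4 sites, whichever list had the higher fold, as they were at 609 of the 612 members.

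Across members, the replicates were more closely correlated in fragments than in fold, the quantity that chose the members. The Pearson correlation between replicates across members was 0.95 for log2 fragments and 0.72 for log2 fold, and the Spearman correlations were 0.95 and 0.70. In the weaker solitary group the Pearson values were 0.87 and 0.68. All points share the same 2 libraries, and both ranges were truncated by the thresholds that chose the groups. Median background at weaker solitary sites was 10.3 in replicate 1 and 7.16 in replicate 2, close to the 10.3 and 7.03 at members.

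**Figure D2:**
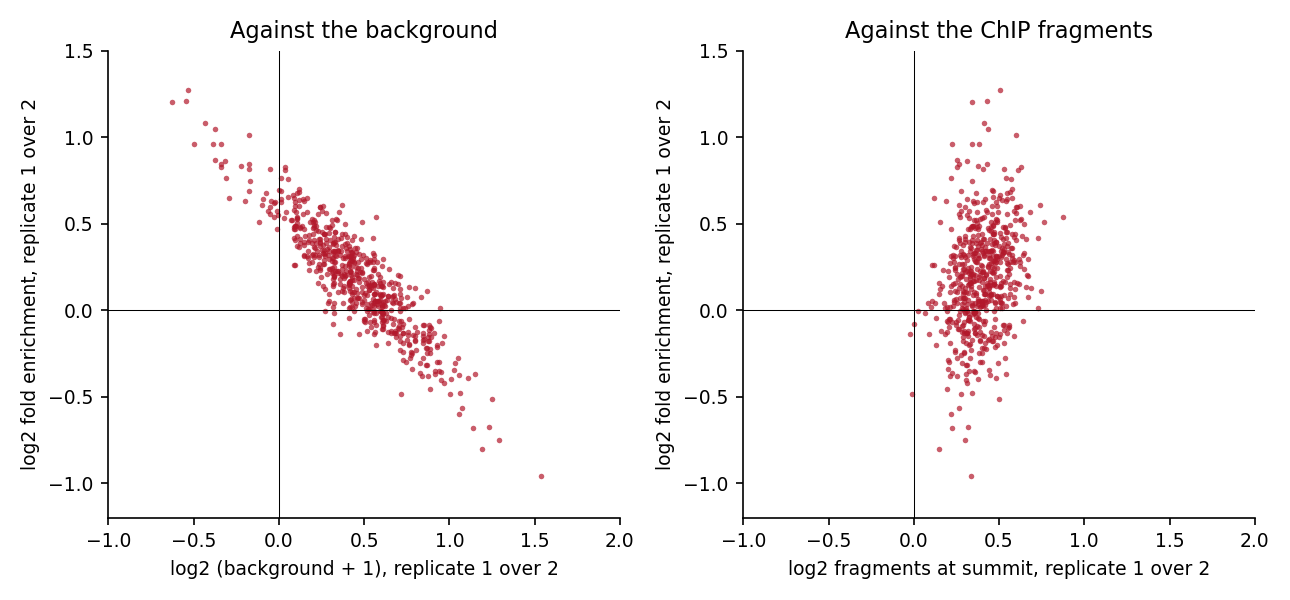
Each point is 1 of the 612 members, with the log2 ratio of fold enrichment between replicates 1 and 2 on the vertical axis, set against the log2 ratio of background + 1 (left) and of ChIP fragments at the summit (right) on the same horizontal scale. The points fall along a descending line on the left, with a Pearson correlation of −0.91, and form a narrow upright band on the right, where the SD of the fragment ratio is 0.13.

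Members had broad peaks. In replicate 1 the median width was 776 bp (quartiles 673 and 917) and in replicate 2 it was 656 bp (574 and 778), and the range over both lists was 392 to 2010 bp. Weaker solitary sites had medians of 427 and 341 bp, so the members were 1.82 times as wide in replicate 1 and 1.92 times in replicate 2. Both peaks were under 500 bp at 8 members, or 1.31%, and at 69.0% of weaker solitary sites. Width comes from the same signal as the fold that chose the members, and no test is given. It rose without a step at the threshold: replicate 1 medians were 329 bp at a mean fold of 2 to 4, 611 bp at 10 to 12, 651 bp at 12 to 15 and 1071 bp at 30 and above.

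Across members, the Pearson correlation of log2 fold with log2 width was 0.51 in each replicate. It was 0.64 and 0.60 in weaker solitary sites and 0.77 in each replicate over all shared sites, whose range of fold was not cut at 12. Widths of the same site in the 2 replicates were more closely related, with a Pearson correlation of 0.85. Paired peaks had to overlap by at least 50% of both widths. This correlation and the width ratios and edge distances that follow are therefore partly set by the pairing rule. Replicate 1 had the wider peak at 551 members, or 90.03%, and the median ratio of widths was 1.17. It was also wider at 85.9% of weaker solitary sites, with a median ratio of 1.24, and at 86.5% of all shared sites. The replicate 2 peak lay wholly inside that of replicate 1 at 443 members, or 72.4%. The same held at 61.3% of weaker solitary sites and 63.3% of all shared sites. At members the left edges lay a median of 50 bp apart and the right edges 57.5 bp apart. At weaker solitary sites both medians were 46 bp.

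The 2 narrowest members had lower folds than the 2 broadest, but the broadest member had a lower fold than the next broadest. The narrowest members by mean width were on chromosome 12 from 37700040 to 37700450, 411 and 461 bp wide with 13.9-fold and 14.6-fold, and on chromosome 4 from 50431489 to 50431970, 482 and 392 bp wide with 13.2-fold and 13.01-fold. The broadest was on chromosome 17 from 34899504 to 34901480, 1977 and 1824 bp wide with 17.9-fold and 18.2-fold. The next was on chromosome 2 from 10715196 to 10717124, 1929 and 1775 bp wide with 33.8-fold and 25.5-fold. Peaks of at least 1000 bp in both lists were found at 31 members, or 5.07% (3.47 to 7.11%), and at 5 weaker solitary sites. The 464 strong sites that were not solitary had widths close to those of the members, with a replicate 1 median of 786 bp and a replicate 2 median of 676 bp.

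**Figure D3:**
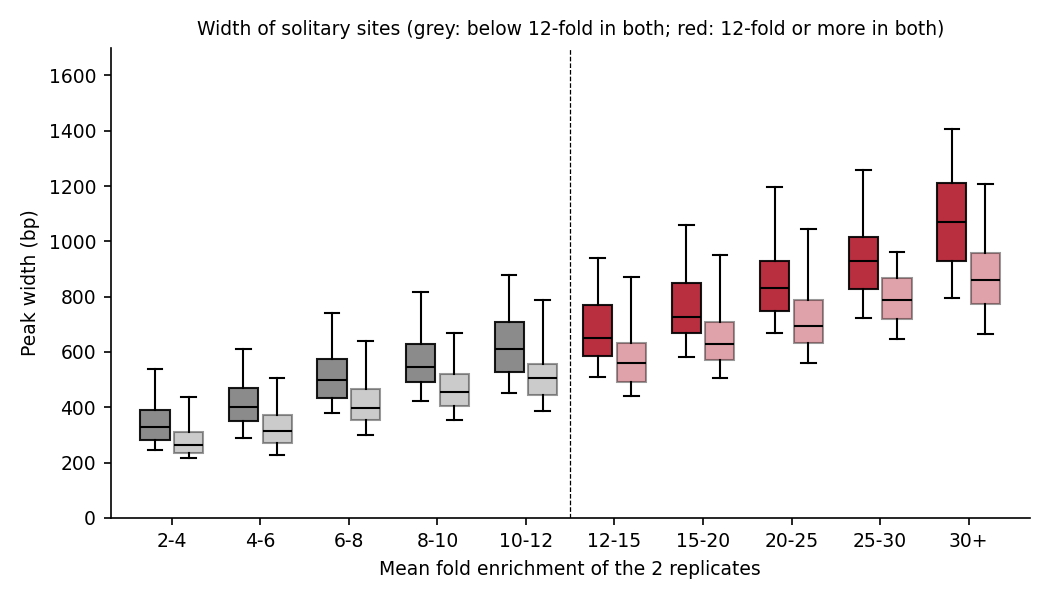
Peak width in bp of solitary sites in classes of mean fold enrichment, with weaker solitary sites in grey and members in red, replicate 1 in the darker box and replicate 2 in the paler box of each pair. Boxes span the quartiles with the median as a line, and whiskers span the 5th to the 95th percentile. Replicate 1 medians climb from 329 bp to 1071 bp with no break at the dashed 12-fold line.

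Summits sat near the middle of the peaks. In replicate 1 the median distance from summit to peak centre was 40.5 bp, or 5.40% of the width, and in replicate 2 it was 32 bp, or 4.86%. In weaker solitary sites it was 25 bp and 23 bp, which was a larger part of their narrower peaks, 6.10% and 6.87%. The larger part was found at the lower folds. Medians in replicates 1 and 2 were 8.45% and 9.56% at a mean fold of 2 to 4. At 4 to 6 they were 5.85% and 7.12%. They were 5.43% and 5.67% at 6 to 8, 5.33% and 4.96% at 8 to 10, and 5.51% and 5.17% at 10 to 12. Weaker sites from 6-fold up were thus near the members, and centring is not read as particular to members. Summits lay within 10% of the width from the centre at 77.6% of members in replicate 1 and 78.1% in replicate 2. Summits lay to either side about equally often, being left of the centre, toward lower coordinates, at 53.3% (49.2 to 57.3%) and 50.8% (46.8 to 54.9%) of members.

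Where a member was lopsided in both replicates, it leaned the same way in both, with 1 exception. The summit was over 10% of the width away from the centre in both lists at 71 members, or 11.6%, and on the same side in 70 of these 71, or 98.6% (92.4 to 99.96%). Of those 70, 37 leaned to the left and 33 to the right. A similar share of weaker solitary sites, 12.4%, was off centre in both lists, and 434 of those 617, or 70.3% (66.6 to 73.9%), had the summit on the same side. Among strong sites that were not solitary the summit was on the same side in 62 of 63 such sites, or 98.4%. Among solitary sites past 12-fold in 1 list it was so in 38 of 39, or 97.4%. Lying over 10% of the width to opposite sides needs summits or peak centres far apart. Members had wider peaks than weaker solitary sites and closer summits, at most 50 bp apart at 97.5%. Agreement in side is therefore tied to width and summit distance. It was not compared between groups at matched values of these, and it is not read as a separate result. Counting all members, however near the centre their summits were, 68.1% had both summits on the same side, against 55.6% of weaker solitary sites. The single exception among members was on chromosome 3 from 31839561 to 31840453, with the summit 98.0 bp right of the centre in replicate 1 and 86.0 bp left of it in replicate 2, although the 2 summits were 4 bp apart. It was singled out after its values were seen.

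Lopsided members were mostly broad ones. Of the members with a mean width of 1000 bp or more, 25 of 50 were off centre in both lists, or 50% (35.5 to 64.5%), against 32 of 150, or 21.3%, at 800 to 1000 bp, 11 of 307, or 3.58%, at 600 to 800 bp and 3 of 105, or 2.86%, below 600 bp. The broadest member, on chromosome 17 from 34899504, had its summit 552 bp right of the centre in replicate 1 and 531.5 bp in replicate 2. On chromosome 16, the site from 4820521 to 4822530 had its summit 637.5 bp and 474 bp right of the centre, with 24.5-fold and 17.5-fold enrichment. At both sites the summits of the replicates lay at most 19 bp apart. The broad member on chromosome 2 was symmetric, with summits 33.0 bp left and 4.00 bp right of the centre.

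The replicates placed most summits of members within 25 bp of each other. Summits lay a median of 14 bp apart (exact binomial 95% interval of the median 13 to 16), at most 25 bp apart at 474 members, or 77.5%, and at most 50 bp apart at 597, or 97.5%. In weaker solitary sites the median was 28 bp (27 to 29), and 46.4% and 74.4% fell within these distances. The distance was smaller at higher enrichment, with medians of 36 bp at a mean fold of 2 to 4, 19 bp at 10 to 12, 15 bp at 12 to 15, 16 bp at 15 to 20, 12 bp at 20 to 25 and 11 bp at 30 and above. Summits coincided to the base at 12 members.

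Only 2 members had summits over 100 bp apart, or 0.33% (0.04 to 1.18%), compared with 268 weaker solitary sites, or 5.39%. One was on chromosome 18 from 53819774 to 53821233, with summits at 53820408 and 53820884, 476 bp apart, in peaks 1460 and 1242 bp wide with 13.5-fold and 12.9-fold enrichment. In replicate 1 its summit was 95.5 bp left of the centre and in replicate 2 295.5 bp right of it. The other was on chromosome 8 from 39326687 to 39327618, with summits 113 bp apart and 14.9-fold and 16.2-fold enrichment. Strong sites that were not solitary had a median summit distance of 13 bp, close to that of the members.

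**Figure D4:**
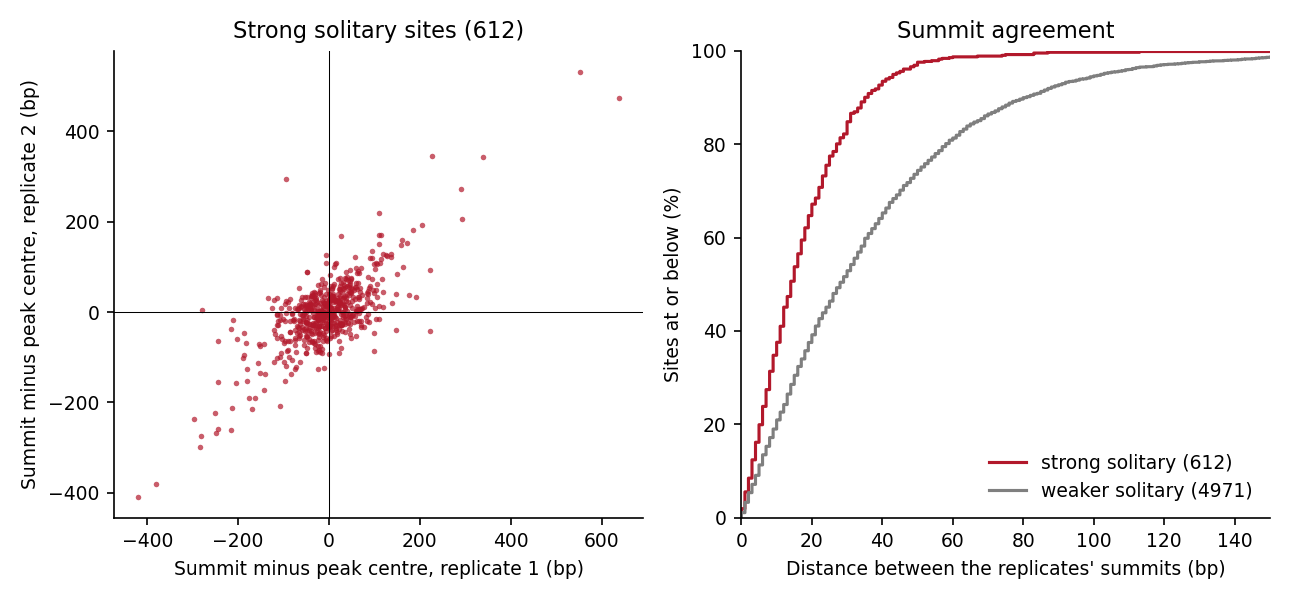
Left, the summit's distance in bp from the peak centre at each of the 612 members in replicate 1 (horizontal) and replicate 2 (vertical), negative toward lower coordinates; most points far from 0 lie along the rising diagonal, and the member with summits 476 bp apart is among those that do not. Right, the share of members (red) and of weaker solitary sites (grey) whose summits in the replicates were at most the given distance apart, with medians of 14 and 28 bp.

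All 20 chromosomes held members, from 21 on chromosomes 12 and 20 to 48 on chromosome 8. Density was 0.646 per Mb, taking each chromosome to end at its last peak and 947 Mb in all, and ran from 0.423 per Mb on chromosome 1 to 1.01 per Mb on chromosome 8. For each chromosome the members were set against its own solitary sites. The share of members was highest on chromosome 5, with 39 of 275, or 14.2% (10.3 to 18.9%), and lowest on chromosome 12, with 21 of 261, or 8.05% (5.05 to 12.04%). The intervals of 19 chromosomes included the share over all, 10.1%, and chromosome 5 was the exception, with a lower limit of 10.3%. The intervals were not adjusted for their number, and among 20 of them a miss this narrow can come from counting error alone. Chromosome 5 is therefore not read as richer in members than the rest. Chromosome 13 had the most weaker solitary sites, 375, and 39 members, or 8.50% (6.11 to 11.4%) of its solitary sites, an interval that included 10.1%.

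Members were concentrated toward the chromosome ends, as weaker sites were, and the shares of the 2 groups had overlapping intervals. The outer 25% at either end held 462 members, or 75.5% (71.9 to 78.8%), and 75.9% (74.7 to 77.1%) of weaker solitary sites. Density was highest at 90 to 95% of the length, where 71 members lay, and lowest at 60 to 65%, where 5 did. Members made up 10.9% (9.98 to 11.9%) of the 2 groups together in the outer parts and 11.1% (9.51 to 12.9%) in the middle. Members of the outer parts had a median mean fold of 17.8 and a median mean width of 707 bp, and those of the middle 19.0 and 710 bp. Chromosome 13 differed from the rest, with 16 of 39 members, or 41.0% (25.6 to 57.9%), in its outer parts, and weaker solitary sites there had a like share, 44.0%. On chromosome 4 the outer parts held 26 of 27 members, and no member lay in the 24.1 Mb between 16.1 and 40.2 Mb.

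The spacing of strong solitary sites is given as a description. Its lower end is set by the rule, its scale follows the number of members, and random placement was not compared. The median distance to the next member was 382 kb (quartiles 186 and 828 kb), and 20 members, or 3.27%, had another within 20 kb. The closest were on chromosome 3, with peaks from 43178037 and 43188026 and summits 10.2 kb apart. Their folds were unequal, 14.7 and 13.5 at the first and 32.5 and 26.2 at the second. Next came a pair on chromosome 15, with peaks from 5593153 and 5604026 and summits 11.0 kb apart. Enrichment was 19.1-fold and 17.3-fold at the first of these and 22.6-fold and 19.0-fold at the second.

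The next strong site of any kind, solitary or not, was measured from both groups. The median distance to the next strong site was 221 kb (exact binomial 95% interval of the median 200.5 to 248 kb) from members and 199.7 kb (192 to 210 kb) from weaker solitary sites. A strong site lay within 100 kb of 25.2% (21.8 to 28.8%) of members and 30.1% (28.8 to 31.4%) of weaker solitary sites, and within 1000 kb of 89.7% and 89.6%. The nearest shared site was itself strong for 52 members, or 8.50% (6.41 to 10.99%), and for 11.2% (10.4 to 12.1%) of weaker solitary sites. It had a median mean fold of 5.63 next to members and 5.72 next to weaker sites. Intervals over sites take sites as independent, which neighbouring sites are not, and no test was made.

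A few members stood alone over very long stretches. On chromosome 19, the site from 17228419 to 17229144 was 1969 kb from the next shared site and 3513 kb from the next strong one, with 23.8-fold and 14.8-fold enrichment. The member on chromosome 7 from 28239955 to 28240761 was 1388 kb from any shared site, with 13.8-fold and 12.3-fold, and the one on chromosome 10 from 22720546 to 22721285 was 1281 kb away, with 20.2-fold and 16.2-fold. These 3 lay at 34.0%, 63.4% and 44.1% of the length of their chromosomes. They had ordinary widths, 726, 807 and 740 bp in replicate 1, and summits 7 to 17 bp apart. For members as a whole the next shared site was a median of 28.9 kb away, against 31.6 kb for weaker solitary sites. Long isolation was not particular to members. No shared site lay within 100 kb of 13.4% of members and 13.1% of weaker solitary sites, and the most isolated weaker site was 3056 kb from the next.

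Solitary here means far from other shared sites, and peaks without a partner under the overlap rule could lie closer. Such a peak stood within 10000 bp of 155 members, or 25.3% (21.9 to 29.0%), and of 26.0% of weaker solitary sites. Near members there were 168 unpaired peaks of replicate 1, with a median of 3.60-fold, and 30 of replicate 2, with a median of 4.11-fold. One of them in each list reached 12-fold. That of replicate 1 lay beside one of the 10 highest members, on chromosome 15 from 2122203, where replicate 1 had a 16.5-fold peak from 2119721 to 2120789 and replicate 2 an 11.7-fold peak from 2119808 to 2120257. These 2 peaks overlap by less than 50% of the wider one and so formed no shared site, and they put an enriched stretch 2572 bp from that member's summit. Weaker unpaired peaks lay closer to it, at 1227 bp (2.84-fold) and 1601 bp (4.42-fold) in replicate 1 and 1586 bp (3.99-fold) in replicate 2. Among the 10 highest, the member on chromosome 12 from 39597235 also had one, 1217 bp away in replicate 1 with 2.79-fold. Without members that had any other peak of either list within 10000 bp, 457 were left.

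**Figure D5:**
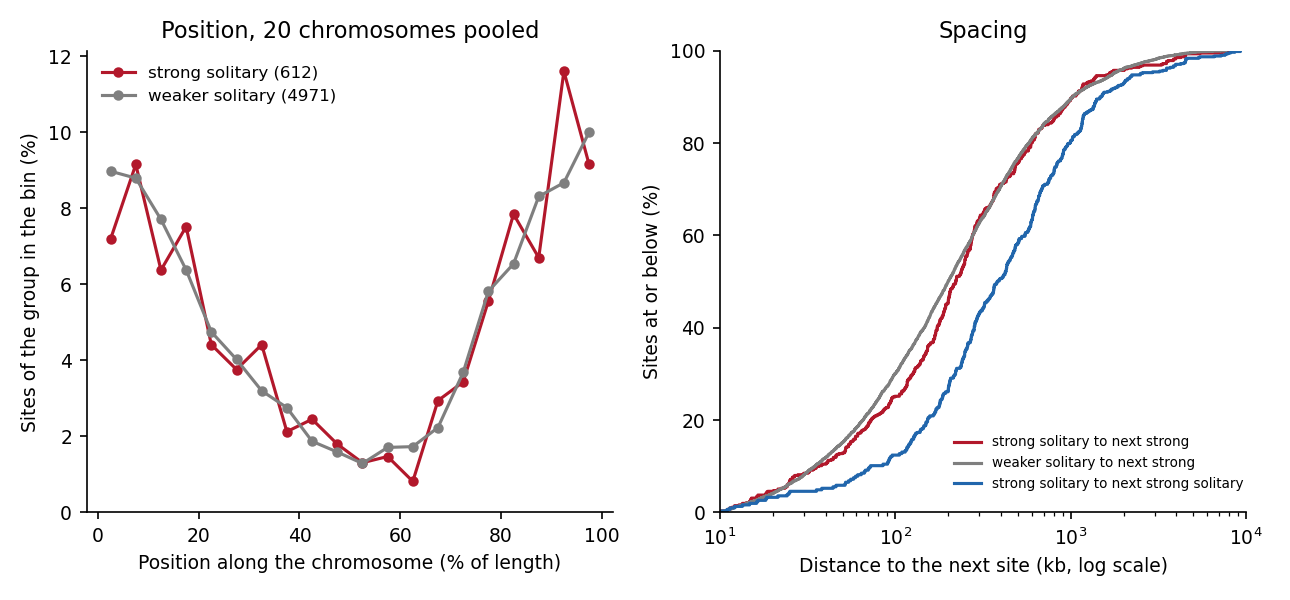
Left, the percentage of members (red) and of weaker solitary sites (grey) in each 5% of chromosome length, 20 chromosomes pooled, both highest toward the ends and lowest past the midpoint. Right, on a log scale in kb, the share of sites with the next strong site at most that far away, for members (red, median 221 kb) and weaker solitary sites (grey, median 199.7 kb), and the distance between members (blue, median 382 kb).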

How the data were processed

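Each ChIP replicate has its own deposited peak list in narrowPeak form. The submitters' processing notes name Bowtie 0.12.7 and MACS2, and no source used here gives the build, filters or threshold. The deposited columns are positions, a score, a fold (ratio of ChIP to local background), the −log10 of the p-value, the −log10 of the q-value, and the offset of the summit. The score was not used. Every peak carried a −log10 q of at least 2.03 in replicate 1 and 2.05 in replicate 2.

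Peaks on chromosomes were paired one to one, the largest overlap first (9806 pairs, the same number as bedtools 2.31.1 gave). Distances use the replicate 1 summit. The last peak end stood for each chromosome's length. Fragments and background were solved from (fragments × scale + 1)/(background + 1) and a Poisson tail, with a scale of 1 in replicate 1 and 0.846 in replicate 2. The deposited −log10 p was met within 0.001 for 100% of peaks. Printed fragment numbers are before scaling, and no depth per library is known. PCR copies are not independent molecules, so Poisson and Clopper-Pearson intervals cover counting error only.

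Members, comparison group and alternatives were chosen with earlier results of these data known, and no test was made. Sites were named by rule: the 10 highest by mean fold, 3 on either side of the threshold, 3 most isolated, 2 narrowest, 2 broadest, 2 with summits farthest apart, 2 most off centre, 2 closest pairs and 2 with the most unequal fold each way. Pairing, selection and recovery were tested on simulated data. Scripts ran on Python 3.11.15 with scipy 1.17.1, numpy 2.4.6, pandas 2.3.3 and matplotlib 3.10.9. No sequence is shown, because no genome of the lists' build was used here.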

Additional observations from a re-analysis of the deposited data

Results flagged for a closer look

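Peaks on unplaced scaffolds lay outside the rule, which takes chromosomes alone. Applied to them, it gave 6 strong solitary sites among 52 shared sites on 14 scaffolds, beside 612 among 9806 on chromosomes. The highest mean fold over the shared sites on scaffolds was 29.9. The count is given because it was above 3, which was a cut-off for listing and not an expected number. A scaffold can be too short to show a neighbour within 10000 bp, and its length is not known here, so solitude there was not established.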

How the results depend on the processing

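Width (646 to 770 bp), summit position (4.88 to 5.41% of width) and summit distance (13 to 15 bp) moved by less than the spread between replicates or their interval under every alternative run. For width and summit position that spread is the SD of the 2 replicate medians. Runs on a single list could hardly leave it, so they do not test the stability of those 2 values. The number of sites, 612, became 939 at 10-fold and 378 at 15-fold, and stayed within 1.5 times under the others. The share in the outer parts, 75.5%, was 71.9% with 20000 bp of solitude and 37.1% when outer meant 10% at either end. Distance to the next member, 382 kb, follows the number of members by construction: it was 439 kb with 80% overlap, 236 kb at 10-fold, 628 kb at 15-fold, 274 kb with 5000 bp and 653 kb with 20000 bp of solitude, 593 kb with no other peak of either list nearby, 296 kb with −log10 q of at least 10, and 291 kb with strength taken over each list's median background. To any strong site it was 221 kb. Single lists, left out in turn, gave 658 to 753 sites, 646 to 715 bp, 4.88 to 5.41% of width, 72.2 to 75.4% in the outer parts and 312 to 322 kb. The median background and the removal of chromosome 13 (77.8% in the outer parts) were chosen after seeing the data. With the median background, 767 sites passed, 571 of them among the 612. No paired analysis was possible because the peak lists cover a single group, ChIP, with 1 list per replicate number. Library depth is unknown here, and median fragments at the summit of weaker solitary sites were 62 in replicate 1 and 48 in replicate 2.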
